A study of Homo sapiens with 14 samples.

Results

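The S34F allele of U2AF1 was compared with the wild type in the human lung carcinoma line A549, in 8 of the 14 RNA-seq libraries of a study of how this allele acts on splicing. The libraries were taken by their labels. Each label names the allele, S34F or wild type, and the construct, v1 or v3, which the study's design text calls isoforms of U2AF1. There were 2 libraries each of v1 S34F, v3 S34F, v1 wild type and v3 wild type. In all 8 libraries U2AF1 had been knocked down, and U2AF1 of the named allele was overexpressed from a virus. The wild-type libraries share the knockdown, the infection and the excess of U2AF1 with the S34F libraries. The other 6 libraries, in pairs, are the same knockdown with an empty vector (EV), a control siRNA with the empty vector, and untreated cells. Each S34F library was paired with the wild-type library of its construct and replicate number, which gave 4 pairs. The labels do not say whether replicates are separate cultures, and p-values measure only their spread, which can be a technical one.

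U2AF1 is the small subunit of the heterodimer that marks the end of an intron for the spliceosome. Its large partner, U2AF2, binds the pyrimidine tract, and U2AF1 contacts the AG with which nearly every intron ends. S34F replaces a serine in the first zinc finger of U2AF1, recurs in lung adenocarcinoma and in myelodysplastic syndromes, and is known for changing which acceptors (3′ splice sites) are chosen according to the base before the AG.

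U2AF1 itself was measured first. It stood at 2179.8 and 3852 FPKM in v1 S34F and 2114 and 3239 FPKM in v3 S34F, against 2351 and 2877 FPKM in v1 wild type and 2366 and 3313 FPKM in v3 wild type. The ranges overlapped and the averaged difference did not pass the test (log2 change 0.029, SE 0.22, adjusted p = 0.97 by limma, the test used for every adjusted p here). The knockdown with the empty vector had 16.2 and 28.9 FPKM and the control siRNA 117 and 119 FPKM. FPKM, fragments scaled to transcript length and to library size, does not separate the 2 alleles, or a construct and the endogenous gene. All 8 epithelial and A549 markers looked for were present, with summed levels of 4498 to 5752 FPKM with S34F and 5384 to 5885 FPKM with the wild type. CDKN2A, which A549 cells lack, was at most 0.247 FPKM with S34F and at 0 in the 4 wild-type libraries. Of 6 fibroblast markers, 2 reached a mean of 1 FPKM. All 6 together summed to 9.84 to 11.7 FPKM with S34F and 9.40 to 12.6 FPKM with the wild type. COL1A1 was at 6.60 to 9.37 FPKM with S34F and 7.48 to 9.26 FPKM with the wild type. THY1 was at 0.241 to 2.75 FPKM and 0.961 to 3.42 FPKM in the same order, and DCN was at 0. Of 7 markers of leukocytes and endothelium 1 reached that level, with sums of 1.41 to 2.18 FPKM and 1.37 to 2.43 FPKM in the same order and CD3E at 0.

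Read depth is known only in relative terms and spanned 0.798 to 1.07 in the 8 libraries. Replicate 2 of v1 S34F was the shallowest, and 33.1% of its FPKM sum fell on AL132768.1, through 1 isoform of 75 bases. The upper quartile of genes nevertheless ran only from 33.5 to 34.6 FPKM. On the first principal component, with 30.7% of the variance over all 14 libraries, replicate 2 of v1 S34F lay at 48.4 and replicate 2 of v3 S34F at 38.7. Both stood apart from the replicates 1 of these groups, at 2.81 and -1.61, so main counts are also given without these libraries. That alternative keeps replicate 2 of the wild type, while same-numbered libraries deviate together, and it takes the spread from the groups that keep both replicates. A call lost there can come from the replicate numbers, from fewer libraries or from these libraries, which cannot be told apart.

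The first question was which acceptors were used more or less with S34F. Usage of an acceptor was the summed FPKM of its isoforms in percent of that of all matched isoforms of the gene that span the place. Among 16849 acceptors in 6977 genes with variable usage, an AG at the intron end and a known base before it, those preceded by thymine (T) were used less with S34F. Position -3 is the base just before the AG. An acceptor was counted when it changed by 5 points or more with an unadjusted p under 0.01, with 1 kept for each gene, which left 309 acceptors used less (1.83% of those tested) and 268 used more (1.59%). Those tested were not limited to 1 per gene, so these shares understate how many changed. Of the 309 used less, 208 or 67.3% had T at -3 (95% exact Clopper-Pearson interval 61.8% to 72.5%, counting error only), against 21.7% of all acceptors tested. Of the 268 used more, 20 or 7.46% had T (4.62% to 11.3%). The acceptors used more had cytosine (C) in 188 cases, or 70.1%, and adenine (A) in 58, or 21.6%, where 68.3% and 8.05% of all acceptors tested have these bases. Leaving out 1 library gave 479 used less without replicate 1 of v1 S34F, 195 without replicate 2 of v1 S34F, 205 without replicate 2 of v3 S34F, and 214 to 348 otherwise, with a T share of 59.3% to 66.4%. Without replicate 2 of both S34F groups 146 acceptors were counted as used less, 78 or 53.4% with T, and 217 as used more, 23 or 10.6% with T.

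Seen per base, 5.70% of the 3649 acceptors with T were counted as used less and 0.548% as used more. Of the 11506 with C, 0.704% were counted as used less and 1.63% as used more. Of the 1356 with A, 1.18% were counted as used less and 4.28% as used more, and of the 338 with guanine 1.18% and 0.592%. At most 1 acceptor per gene was counted, while all tested ones are in the denominators, so these rates understate the shares that changed. Over all acceptors tested, whether counted or not, the median change was -2.65 points for T, 0.31 for C and 1.27 for A. With v1 alone these medians were -2.81, 0.47 and 1.52 points, and with v3 alone, from other libraries, -2.62, 0.13 and 1.12 points. At an adjusted p under 0.05, 59 acceptors with T were used less and 3 more, 13 with C less and 60 more, and 2 with A less and 13 more.

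**Figure D1:**
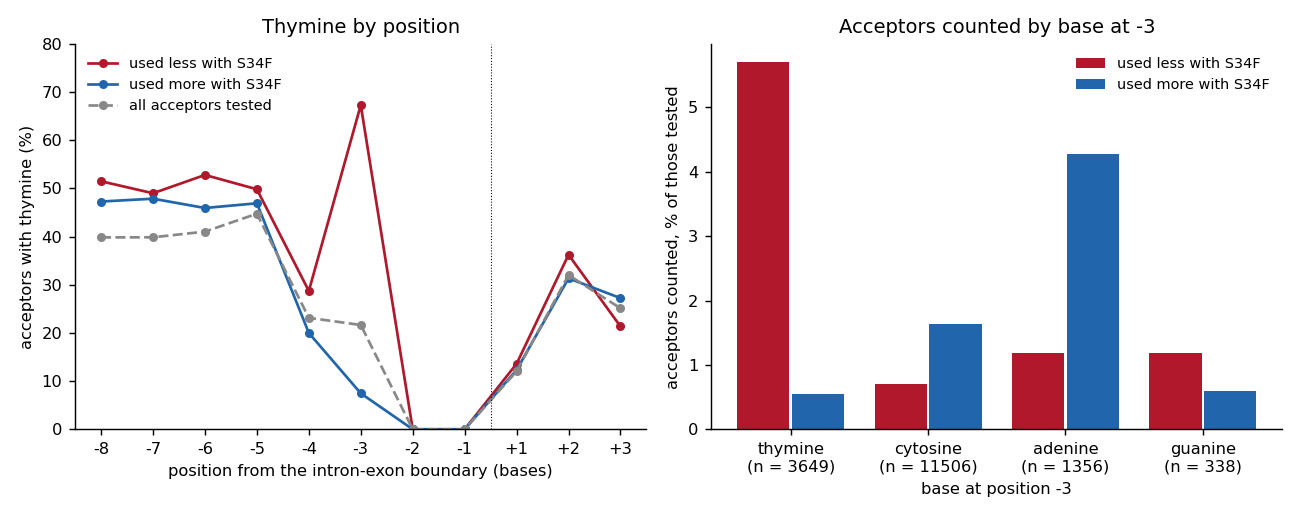
Left, percent of acceptors with thymine at each position around the intron-exon boundary (dotted line) for acceptors used less (red) or more (blue) with S34F and for all tested (grey). Right, percent of the tested acceptors with each base at -3 that were counted as used less (red) or more (blue). At -3 the lines part to 67.3% and 7.46%, with 21.7% for all, while at -5 they lie at 49.8% and 46.9%.

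The neighbouring positions differed less than -3. At -4, T stood in 28.7% of the acceptors used less, in 52 of the 260 used more whose base there is known and in 23.1% of all tested. At -5 the shares were 49.8%, 46.9% and 44.8% in the same order, and at +1, the first base of the exon, 13.6%, 12.3% and 12.02%. Farther upstream T was also more frequent than in all tested, with 52.8%, 45.9% and 41.0% at -6. At -7 the shares of T were 49.0%, 47.9% and 39.9%, and at -8 51.5%, 47.3% and 39.8%. Adenine at -4 stood in 22.1%, 31.9% and 21.8%, again in that order. The acceptors tested are those whose upstream bases lie inside an exon of another annotated transcript, since a genome sequence was not used here. Most are alternative sites, so they do not sample introns at large. Usage comes from isoform estimates and not from counts of reads over junctions.

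The mean usage of 3646 acceptors with T, those with a value in all 14 libraries, was 61.5% and 56.7% in v1 S34F and 62.1% and 58.2% in v3 S34F, against 64.5% and 61.2% in v1 wild type and 64.5% and 62.3% in v3 wild type, replicate 1 first. Each S34F library lay below the wild-type library of its pair, by an amount larger than the difference between the constructs within a replicate number. The replicates 2 were lower than the replicates 1 in every group of the study, so that the groups overlapped when the numbers were ignored. For acceptors with A the means were 49.7% and 47.1% in v1 S34F and 49.4% and 48.7% in v3 S34F, against 47.5% and 45.3% in v1 wild type and 48.0% and 46.6% in v3 wild type. Here each S34F library lay above its wild-type partner. For acceptors with C the S34F library was also the higher of each pair, by less than 1 point in all 4.

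**Figure D2:**
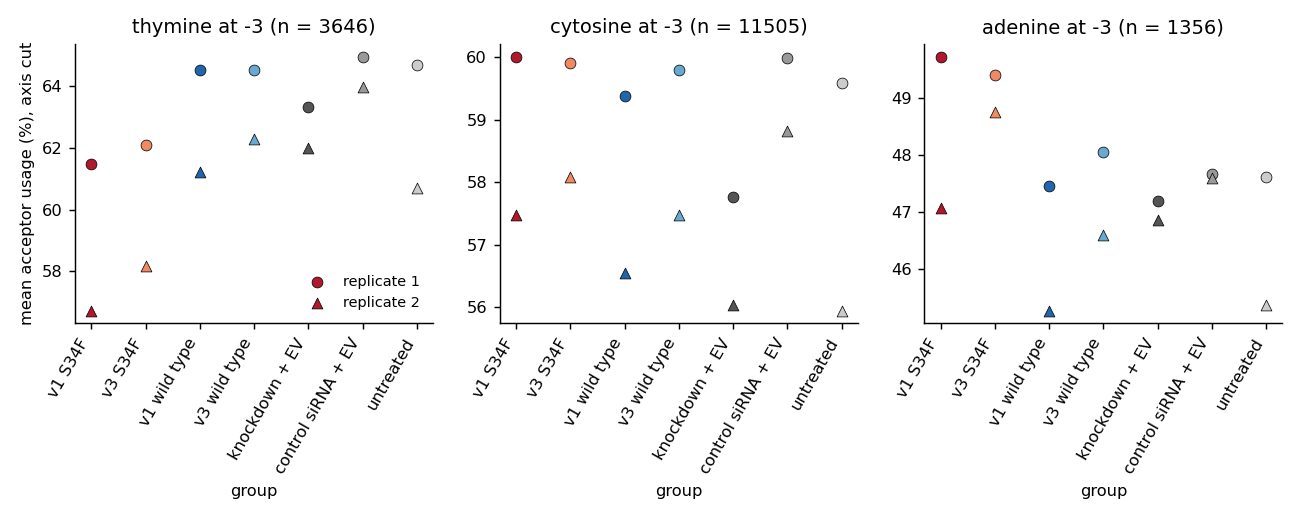
Mean usage in percent (the axes are cut and differ) over the tested acceptors with thymine, cytosine or adenine at -3 that have a value in every library, in each of the 14 libraries, circles for replicate 1 and triangles for replicate 2. With thymine the S34F libraries (61.5%, 56.7%, 62.1% and 58.2%) lie below the wild-type library of the same construct and number, and with adenine above it.

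In 28 genes, 29 pairs of acceptors at most 100 bases apart moved in opposite directions, each at an unadjusted p under 0.01 and by 5 points or more. Usage is summed over whole isoforms, so acceptors on the same isoforms share a change. A pair's change can thus belong to another splice event of these isoforms. Both ARL2BP pairs, for example, changed by the same -43.4 and 43.4 points and are not separate events in these values. The acceptor used less had T at -3 in 21 of the 29 pairs, and its neighbour used more had C in 16 of these, A in 4 and T in 1. In 0 pairs did a neighbour with T gain from an acceptor with another base. Among all tested pairs within that distance, whatever their change, the acceptor with T moved down relative to its neighbour in 68.0% of 269 pairs of T with C and in 64.9% of 57 pairs of T with A. The acceptor with C moved down relative to one with A in 57.1% of 184 pairs.

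For 6 of the pairs the sequences around both acceptors are shown, to set the bases beside the change in usage. The pairs were chosen after their values were seen, from those whose spanning isoforms had at least 20 FPKM in sum. Each line gives the last 20 bases of the intron and the first 3 of the exon from GENCODE release 29 transcripts (GRCh38), 5′ to 3′ on the gene's strand, and the capitals mark bases -3 to -1.
ARHGAP11A, used less (chr15:32632959-32632981, plus strand): acatgtggttatttttgTAGttc
ARHGAP11A, used more (chr15:32633043-32633065, plus strand): aaaccatttgatcactgCAGgtg
FN1, used less (chr2:215372373-215372395, minus strand): ctctaacctctctcggcTAGacg
FN1, used more (chr2:215372298-215372320, minus strand): cttggatgttccttccaCAGttc
ILK, used less (chr11:6604160-6604182, plus strand): caaacacttctctcctgTAGagg
ILK, used more (chr11:6604206-6604228, plus strand): ttccctggatcactccaCAGtcc
PICALM, used less (chr11:85981986-85982008, minus strand): ttaaggctttgatgaacTAGgtg
PICALM, used more (chr11:85982001-85982023, minus strand): cgtctgtttgtaactttAAGgct
PPP6R3, used less (chr11:68613046-68613068, plus strand): gcctgtctgttgctcctTAGgac
PPP6R3, used more (chr11:68613016-68613038, plus strand): tttcatatttctgctgcAAGtgc
IMMT, used less (chr2:86171343-86171365, minus strand): tgagtaacatatatttaTAGcac
IMMT, used more (chr2:86171310-86171332, minus strand): ggctcaaattatttctgCAGcag

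In ARHGAP11A, a GTPase-activating protein, both acceptors lie in coding sequence, 84 bases apart. The one ending in TAG was used at 68.5% and 64.1% in v1 S34F and 78.4% and 73.5% in v3 S34F, against 93.1% and 92.6% in v1 wild type and 94.3% and 91.5% in v3 wild type (-21.7 points, SE 2.22, adjusted p = 0.0079). The one ending in CAG was used at 28.7% and 29.2% in v1 S34F and 19.9% and 22.7% in v3 S34F, against 6.15% and 4.38% in v1 wild type and 4.96% and 6.105% in v3 wild type (19.7 points, SE 1.91, adjusted p = 0.0069). The S34F and wild-type libraries did not overlap at either site, and v1 S34F moved farther than v3 S34F.

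In FN1, the matrix protein fibronectin, the acceptors lie 75 bases apart in coding sequence. The TAG acceptor was used at 35.1% and 33.2% in v1 S34F and 50.6% and 42.8% in v3 S34F, against 77.3% and 71.4% in v1 wild type and 66.7% and 60.5% in v3 wild type (-28.5 points, SE 4.35, adjusted p = 0.025). The CAG acceptor stood at 33.2% to 50.2% with S34F, against 14.6% to 26.1% with the wild type (22.4 points, SE 2.97, adjusted p = 0.018). Both sites kept the S34F libraries apart from the wild type.

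In ILK, the integrin-linked kinase, the pair lies 46 bases apart at the 5′ UTR. The TAG acceptor ranged from 16.8% to 22.2% with S34F, against 28.95% to 49.7% with the wild type (-19.004 points, SE 3.16, adjusted p = 0.031), and the CAG acceptor from 76.8% to 82.1% with S34F, against 48.5% to 69.8% with the wild type (19.1 points, SE 3.42, adjusted p = 0.036). The v3 wild-type libraries used the TAG site more than the v1 wild-type ones did.

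In PICALM, a clathrin assembly protein, a TAG and an AAG acceptor of coding exons lie 15 bases apart. The TAG acceptor was used at 14.4% and 7.08% in v1 S34F and 11.03% and 10.1% in v3 S34F, against 28.5% and 24.9% in v1 wild type and 33.6% and 25.7% in v3 wild type (-17.5 points, SE 3.397, adjusted p = 0.045). The AAG acceptor was used at 85.6% to 91.99% with S34F, against 65.9% to 74.5% with the wild type (adjusted p = 0.0503, which missed the threshold). PPP6R3, a regulatory subunit of protein phosphatase 6, had its TAG acceptor at 75.5% to 84.7% with S34F, against 92.6% to 98.4% with the wild type (-15.2 points, SE 2.57, adjusted p = 0.032), and the AAG acceptor upstream at 11.04% to 18.6% with S34F, against 0.8996% to 6.68% with the wild type (adjusted p = 0.051, likewise). IMMT, which shapes mitochondrial cristae, had its TAG acceptor at 10.2% to 18.99% with S34F, against 26.5% to 30.6% with the wild type (adjusted p = 0.052, likewise) and its CAG acceptor at 79.8% to 88.1% with S34F, against 63.9% to 69.98% with the wild type (16.9 points, SE 3.21, adjusted p = 0.043). In all 6 genes neither acceptor had overlapping groups, which follows in part from choosing the pairs by their values. The share of all tested acceptors without overlap was not counted.

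**Figure D3:**
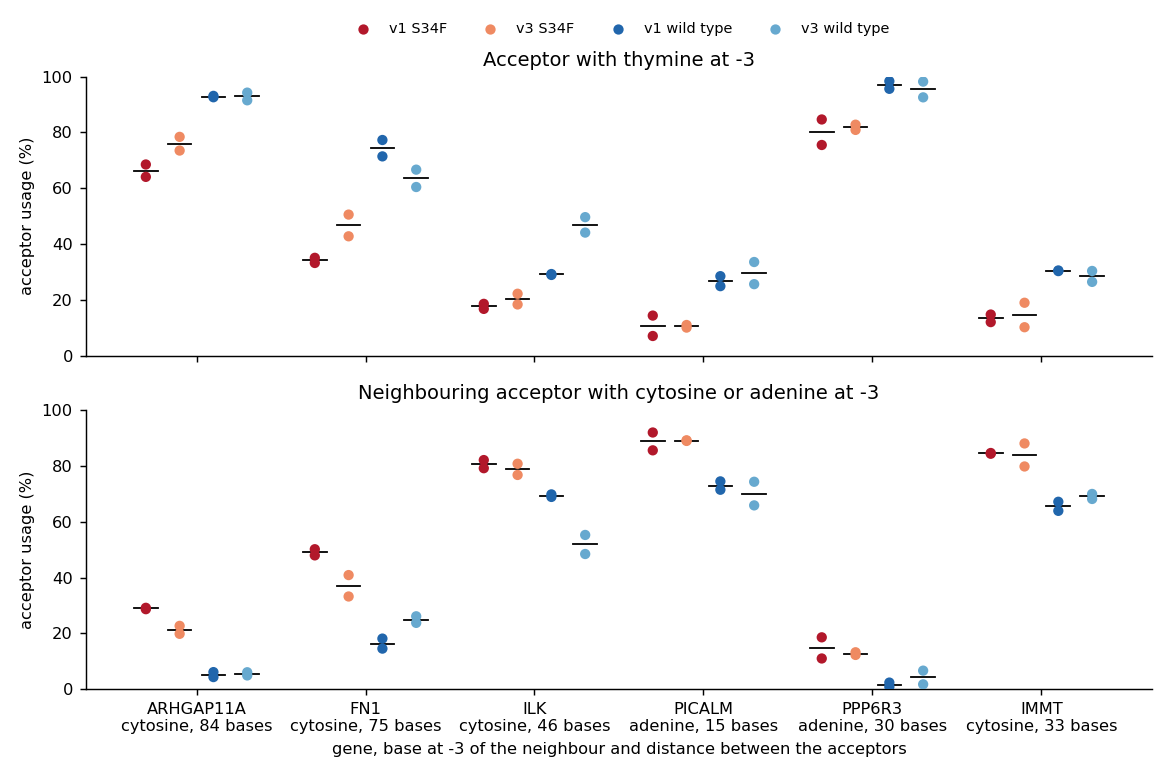
Usage in percent of the acceptor with thymine at -3 (top) and of its neighbour (bottom) in 6 genes, 1 dot per library and a bar at the mean of the 2 libraries of a group, S34F in reds and the wild type in blues. In each gene the top acceptor is lower with S34F and the bottom one higher, as in ARHGAP11A.

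The next acceptors come from those counted above, 1 per gene, whose spanning isoforms summed to at least 20 FPKM. Shown are the 5 in each direction with the smallest p under the naming rule given with the processing. That p is of the S34F change itself, so these are picked by the tested values and their bases are no separate evidence. All 5 used less end in TAG, and of the 5 used more, 4 end in CAG and 1 in AAG. ARHGAP11A and FN1 belong to these too, with the gained sites given above. This choice was added after the values were seen.
MYEOV, used less (chr11:69295307-69295329, plus strand): caacttcccctggcactTAGgac
CRYZ, used less (chr1:74707202-74707224, minus strand): atttctcttttattataTAGaag
CDV3, used less (chr3:133587876-133587898, plus strand): ttacatttcttttccctTAGgga
PSMA4, used less (chr15:78542463-78542485, plus strand): tcactgcttttgttttgTAGgtc
PAPOLA, used less (chr14:96527410-96527432, plus strand): atgggcttaatttttttTAGgtg
TAF1D, used more (chr11:93738438-93738460, minus strand): tatcccttactcacctaAAGggg
TIMM9, used more (chr14:58409097-58409119, minus strand): gaatatccatgagatttCAGgaa
ISG20L2, used more (chr1:156727767-156727789, minus strand): aggatcactttcttcccCAGggt

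MYEOV, a gene of uncertain function at a breakpoint seen in myeloma, used its 5′ UTR acceptor at 8.49% and 7.61% in v1 S34F and 9.601% and 8.83% in v3 S34F, against 26.7% and 27.8% in v1 wild type and 31.2% and 27.1% in v3 wild type (-19.6 points, SE 2.303, adjusted p = 0.013). CRYZ, a quinone reductase, used the acceptor of a coding exon at 67.4% and 52.8% in v1 S34F and 72.5% and 61.9% in v3 S34F, against 90.2% and 91.6% in v1 wild type and 92.4% and 92.6% in v3 wild type (-28.04 points, SE 3.696, adjusted p = 0.018). In CRYZ the S34F libraries spread more widely than the wild-type ones. PSMA4, a subunit of the proteasome core, used its acceptor at 17.8% to 31.99% with S34F, against 49.1% to 69.2% with the wild type (-36.3 points, SE 5.302, adjusted p = 0.021). CDV3 stood at 28.1% to 31.9% with S34F, against 48.2% to 54.2% with the wild type (adjusted p = 0.019). PAPOLA, the main nuclear poly(A) polymerase, stood at 75.9% to 88.5% with S34F, against 96.99% to 98.5% with the wild type (adjusted p = 0.023).

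TAF1D, a subunit of the RNA polymerase I factor SL1, used more of a coding acceptor that ends in AAG, at 30.8% and 41.3% in v1 S34F and 32.3% and 41.2% in v3 S34F, against 8.71% and 7.35% in v1 wild type and 6.18% and 7.53% in v3 wild type (28.9 points, SE 3.01, adjusted p = 0.0087). TIMM9, a chaperone of the mitochondrial intermembrane space, used its CAG site at 16.1% to 29.2% with S34F, against 5.76% to 12.05% with the wild type (13.4 points, SE 1.82, adjusted p = 0.019). ISG20L2, a nuclear exonuclease, used its own at 42.7% to 59.9% with S34F, against 24.8% to 31.6% with the wild type (22.3 points, SE 3.12, adjusted p = 0.019). The S34F and wild-type libraries did not overlap at these sites, which were picked by p, so this too follows in part from the choice. BCOR, a transcriptional corepressor added to these with 18.6 FPKM of spanning isoforms, had a coding acceptor ending in CAG at 89.8% and 83.9% in v1 S34F and 80.8% and 93.6% in v3 S34F, against 46.6% and 39.5% in v1 wild type and 62.9% and 44.6% in v3 wild type (38.6 points, SE 5.15, adjusted p = 0.018). Without replicate 2 of both S34F groups 4 of the 22 acceptors named here by p or size were called, those of TAF1D (adjusted p = 0.024), UBE2E3 (0.035), ARHGAP11A (0.047) and CRYZ (0.047).

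The 6 largest decreases and 6 largest increases of usage among the acceptors counted lay mostly in isoforms of low level. The 6 used less were in ZNF259, SF3B3, FBXO4, FOCAD, the non-coding gene ENSG00000263412 and EXOC3, of -58.8 to -43.6 points, with T at -3 in SF3B3, FBXO4 and ENSG00000263412 and C in the others. The 6 used more were in ARHGAP33, UBE2E3, BRSK1, CLN3, ATP5D and PLCG1, of 48.2 to 64.996 points, all with C. Only SF3B3 (adjusted p = 0.044) and EXOC3 (adjusted p = 0.046) passed an adjusted p of 0.05. In ZNF259 the 4 wild-type libraries ran from 0.00417% to 100%, which leaves its mean to a few libraries. SF3B3, of the branch site complex, used this 5′ UTR acceptor at 11.5% to 20.3% with S34F, against 32.6% to 86.6% with the wild type.

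Isoform usage was then compared gene by gene. Usage here is an isoform's share of its gene's FPKM. Of 41782 isoforms of 11686 genes, 294 changed (0.704%), in 250 genes, with 189 used more (0.452%) and 105 used less (0.251%), and 290 of the 294 had the same sign in all 4 pairs. The calls rest on the average over these pairs, so that agreement follows in part from the call. The share of all isoforms with the same sign was not counted. An arcsine transform changed the split to 130 used more and 124 used less, so the excess of increases depends on the scale. In 43 genes isoforms were called in both directions. The median called gain was 18.6 points and the median called loss -23.5 points. Without replicate 2 of both S34F groups 53 isoforms were called, 46 used more and 7 used less, and 26 of them were among the 294. Of the 43 isoforms named below, 4 were called then, those of UBE2Q2 (adjusted p = 0.024), PLK4 (0.027), LIAS (0.036) and STRAP (0.042). Leaving out 1 library gave 420 and 235 calls without replicate 1 of v1 and v3 S34F, and 64 and 42 without replicate 2 of these groups. It gave 37 and 14 without replicates 1 and 2 of v1 wild type, and 22 without either replicate of v3 wild type. A fit to only the 8 libraries called 2 isoforms.

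Annotated transcript types of gains and losses were set beside those of all isoforms tested. Of the 189 isoforms used more, 22 (11.6%) were annotated as targets of nonsense-mediated decay, 24 (12.7%) as processed transcripts without a reading frame and 8 (4.23%) as retained introns. Of the 105 used less these were 6 (5.71%), 3 (2.86%) and 4 (3.81%), and 84 of 105 were protein-coding, against 116 (61.4%) of the gains. Among all isoforms tested 6.49%, 11.04% and 11.9% were of these 3 types and 59.3% were protein-coding. Together the 3 types made up 28.6% of the gains, 12.4% of the losses and 29.4% of all tested. The gains thus lay near the share of all isoforms and the losses below it. The difference between gains and losses was not tested.

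The isoforms named next are the 10 largest called decreases and increases with the same sign in all 4 pairs, 1 per gene (the one with the smallest p), in genes with a mean of at least 5 FPKM. STRAP, an adaptor and a known splicing target of mutant U2AF1, had ENST00000419869 at 58.98% and 24.6% in v1 S34F and 59.5% and 28.6% in v3 S34F, against 89.7% and 84.4% in v1 wild type and 87.97% and 84.3% in v3 wild type (-43.7 points, SE 7.95, adjusted p = 0.049). Replicates 2 of S34F lay lower than replicates 1. COX18, which inserts a cytochrome oxidase subunit into the mitochondrial inner membrane, had ENST00000295890 at 13.2% to 30.3% with S34F, against 54.5% to 72.8% with the wild type (-41.01 points, SE 5.0999, adjusted p = 0.017). LIAS, which makes lipoic acid, had ENST00000261434 at 20.9% to 37.04% with S34F, against 57.3% to 81.1% with the wild type (-39.7 points, SE 5.13, adjusted p = 0.018).

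BCOR had ENST00000378444 at 9.79% and 15.8% in v1 S34F and 18.6% and 6.18% in v3 S34F, against 52.6% and 55.6% in v1 wild type and 34.6% and 54.9% in v3 wild type (-36.8 points, SE 5.003, adjusted p = 0.02). DNMT3B, a DNA methyltransferase, had ENST00000348286 at 10.9% to 30.2% with S34F, against 47.01% to 67.5% with the wild type (-34.7 points, SE 5.099, adjusted p = 0.027). SMARCA1, an ISWI remodeler, had ENST00000371122 at 9.502% to 25.8% with S34F, against 50.01% to 59.2% with the wild type (-34.4 points, SE 4.27, adjusted p = 0.017). In all 3 genes the S34F libraries lay below the wild-type ones.

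MTRR, which keeps methionine synthase active, had ENST00000440940 at no more than 5.09% with S34F, against 30.8% to 47.4% with the wild type (-34.8 points, SE 3.79, adjusted p = 0.014). FBXO4, of an SCF ubiquitin ligase, the Wnt receptor gene FZD6 and the antisense gene TTC28-AS1 changed by -41.9, -37.8 and -36.1 points in ENST00000281623, ENST00000358755 and ENST00000437713. FZD6 ENST00000358755 was at 0.135% and 0.00702% in the replicates 2 of S34F and at 12.9% and 23.9% in the replicates 1.

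Among the gains, PSPC1, a paraspeckle protein, had ENST00000471658, a decay-annotated isoform, at 50.2% and 62.3% in v1 S34F and 41.8% and 63.9% in v3 S34F, against 21.2% and 21.5% in v1 wild type and 16.9% and 18.4% in v3 wild type (35.1 points, SE 5.11, adjusted p = 0.026). UBE2Q2, a ubiquitin-conjugating enzyme, had ENST00000569423 at 63.8% and 66.6% in v1 S34F and 46.7% and 48.3% in v3 S34F, against 27.6% and 28.2% in v1 wild type and 16.5% and 15.4% in v3 wild type (34.5 points, SE 2.59, adjusted p = 0.0029). PLK4, the kinase of centriole duplication, had ENST00000513090 at 35.9% and 42.2% in v1 S34F and 16.7% and 24.01% in v3 S34F (29.04 points, SE 2.67, adjusted p = 0.0085). With the wild type it was at 2.64% in replicate 2 of v1 and near 0 in the other 3 libraries. It was higher with v1 S34F than with v3 S34F (unadjusted p of that difference = 0.0094, not called).

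ANAPC10, of the anaphase-promoting complex, had ENST00000511466, a transcript without a reading frame, at 36.9% to 48.3% with S34F, against 4.502% to 20.5% with the wild type (31.6 points, SE 4.74, adjusted p = 0.028). SRP19, of the signal recognition particle, and PON2, a paraoxonase, gained 30.8 and 29.5 points in ENST00000282999 and ENST00000433091. ZNF174, HIPK3 and FKBP1B gained 33.4, 29.1 and 29.7 points in ENST00000575752, ENST00000303296 and ENST00000380991. NOTCH2NL gained 31.3 points in ENST00000344859, a value that is uncertain because near-identical copies can share its reads.

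The list of known splicing targets of mutant U2AF1 held 7 called isoforms of 133 tested, in 6 genes, where 0.704% of all isoforms tested were called. The list was chosen with the field's and these data's results known and is no independent evidence. Besides STRAP and BCOR these were DEK, CTNNB1, KDM6A and PCBP2. In DEK, a chromatin protein, ENST00000244776 stood at 47.6% and 46.5% in v1 S34F and 44.1% and 43.5% in v3 S34F, against 25.8% and 19.01% in v1 wild type and 20.2% and 21.2% in v3 wild type (23.9 points, SE 4.09, adjusted p = 0.039). In CTNNB1, beta-catenin, ENST00000396185 stood at 55.01% to 66.8% with S34F, against 33.4% to 36.3% with the wild type (26.8 points, SE 3.78, adjusted p = 0.023) and ENST00000396183 at 1.49% to 5.81% with S34F, against 15.2% to 25.5% with the wild type (-17.6 points, SE 2.94, adjusted p = 0.036). KDM6A ENST00000543216 gained 18.9 points, a call lost with the block (adjusted p = 0.053), and PCBP2 ENST00000552819 changed by -11.1 points.

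Genes of cell division held several called isoforms. Of the centromere and kinetochore list 6 of 121 isoforms were called, in 4 genes, and of the mitotic kinases, cyclins and spindle list 8 of 99, in 6 genes, against 0.704% of all isoforms. These lists too were chosen with earlier results of these data known, so their counts are no independent evidence. BUB3, of the spindle checkpoint, had ENST00000368858 at 74.7% and 72.4% in v1 S34F and 69.6% and 72.2% in v3 S34F, against 49.8% and 49.1% in v1 wild type and 39.8% and 40.03% in v3 wild type (27.5 points, SE 3.42, adjusted p = 0.017), and ENST00000368865 changed by -24.6 points. MKI67, the Ki-67 antigen, had ENST00000368653 at 28.8% to 41.1% with S34F, against 51.9% to 60.5% with the wild type and ENST00000368654 at 52.5% to 57.9% with S34F, against 28.97% to 45.6% with the wild type (adjusted p = 0.029 and 0.033). ANLN, an actin-binding protein of cytokinesis, had ENST00000396068 at 42.8% to 52.8% with S34F, against 21.3% to 26.4% with the wild type (25.2 points, SE 2.82, adjusted p = 0.016).

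HJURP, the chaperone of the centromeric histone, had ENST00000432087 at 16.7% to 29.2% with S34F, against 0.745% to 7.597% with the wild type (18.1 points, SE 1.97, adjusted p = 0.014). The decay-annotated isoform KIF23 ENST00000561089 stood at 11.3% to 14.1% with S34F, against 1.46% to 3.11% with the wild type. CCNB1, cyclin B1, had ENST00000507798 at 13.1% to 18.1% with S34F, against 5.43% to 7.298% with the wild type (9.001 points, SE 1.59, adjusted p = 0.043). A TAG acceptor of CCNB1 differed by -18.1 points (adjusted p = 0.079, not called) and a CAG acceptor 52 bases downstream by 9.08 points (adjusted p = 0.045). HJURP ENST00000411486, also called, was not called with the block (adjusted p = 0.053). CENPE ENST00000514974 and KIF20B ENST00000478929 gained 16.3 and 11.3 points.

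Single isoforms of other lists, also chosen with earlier results known, changed as well, with counts to be read against the 0.704% of all isoforms. Of the SR proteins and hnRNPs 2 of 129 isoforms were called, both of HNRNPM, a splicing regulator, with ENST00000348943 at 13.9% and 15.1% in v1 S34F and 17.2% and 14.9% in v3 S34F, against 0.371% and 0.595% in v1 wild type and 1.401% and 1.09% in v3 wild type (14.4 points, SE 1.58, adjusted p = 0.014) and ENST00000325495 at 39.3% to 42.4% with S34F, against 59.9% to 64.8% with the wild type. HMGCS1, of the mevalonate pathway, changed by -25.9 points in ENST00000325110, 1 of 83 isoforms of cholesterol and fatty acid synthesis. GCLC, of glutathione synthesis, gained 14.03 points in ENST00000513939, 1 of 58 of the NRF2 targets, and FN1 gained 16.6 in ENST00000446046, 1 of 47 of the mesenchymal and TGF-beta response genes. The other 17 lists had 0 called isoforms, among them splice site recognition (0 of 75) and nonsense-mediated decay and exon junction (0 of 47). In these 17 lists limma gave 97 of 1025 isoforms an unadjusted p under 0.05, against 5012 of 41782 overall.

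The level of each gene was compared next. Of 14233 genes, 264 were called (1.85%), 83 higher with S34F (0.583%) and 181 lower (1.27%), and 2266 had an unadjusted p under 0.05. With the replicate number as a block, as the pairing of the libraries allows, 1136 were called (7.98%), 466 higher (3.27%) and 670 lower (4.71%), and these include all 264. Of the 264, 263 had the same sign in all 4 pairs, and in 261 the S34F libraries lay all above or all below the wild-type ones, as they did in 13.5% of all genes. Both counts follow in part from the call, and the share of all genes with the same sign was not counted. Most changes were small, with 17 rises and 20 falls of at least 2 times on the log2(FPKM + 1) scale and medians of 0.56 and -0.66. Without replicate 2 of both S34F groups 56 genes were called, 15 higher and 41 lower, and 43 of them were among the 264. Of the 46 genes that the naming rules gave besides NCAPG2, U2AF2 and U2AF1, 19 were called then. For those of the other 27 that are described below, the adjusted p without these libraries is given there. Leaving out 1 library gave 332 and 242 calls without replicate 1 of v1 and v3 S34F, and 100 and 77 without replicate 2 of these groups. It gave 63 and 58 without replicates 1 and 2 of v1 wild type, and 75 and 47 without those of v3 wild type.

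NCAPG2 (ENSG00000146918, chromosome 7, 158424003 to 158497520, GRCh37), a subunit of the condensin II complex that compacts chromosomes, fell the most clearly. It stood at 12.1 and 11.3 FPKM in v1 S34F and 13.96 and 11.5 FPKM in v3 S34F, against 35.8 and 37.5 FPKM in v1 wild type and 35.8 and 32.6 FPKM in v3 wild type. Every S34F library lay far below every wild-type one (log2 change -1.46, SE 0.082, adjusted p = 3.0e-05). It was called under every alternative run, and the difference between v1 and v3 did not pass (unadjusted p = 0.24). Of the 25 condensin and cohesin genes it was the only one called (2 with the block), with 15 of 25 above the wild type and a list median of 0.05. NCAPG, its condensin I counterpart, was at 20.7 to 27.4 FPKM with S34F, against 27.8 to 32.1 FPKM with the wild type (adjusted p = 0.098, or 0.036 with the block), and NCAPD3 and NCAPH2 of condensin II had log2 differences of -0.29 and 0.050.

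U2AF2 (ENSG00000063244, chromosome 19, 56165512 to 56186081, GRCh37), the large partner of U2AF1, fell as well, to 106 and 117 FPKM in v1 S34F and 103 and 96.4 FPKM in v3 S34F, against 225 and 238 FPKM in v1 wild type and 201 and 202 FPKM in v3 wild type. The groups were far apart (log2 change -1.03, SE 0.099, adjusted p = 0.0025), and v1 and v3 gave nearly the same change, -1.05 and -1.01. CTD-2537I9.12 overlaps U2AF2 and can share its reads. Among 23 genes of splice site recognition, U2AF2 and RBM39 were called, and the median was 0.01 with 12 of 23 above the wild type. RBM39, a splicing factor related in sequence to U2AF2, rose, with 261 and 248 FPKM in v1 S34F and 275 and 237 FPKM in v3 S34F, against 207 and 221 FPKM in v1 wild type and 168 and 177 FPKM in v3 wild type (log2 change 0.41, SE 0.068, adjusted p = 0.015). SF3B1, SF1 and PUF60, other factors of the intron end, had log2 differences of 0.13, 0.065 and 0.028, not called. HNRNPH3 was the 1 of 30 SR proteins and hnRNPs called (2 with the block), with 269 to 333 FPKM with S34F, against 149 to 198 FPKM with the wild type (log2 change 0.76, SE 0.14, adjusted p = 0.023, or 0.16 without replicate 2 of S34F), in a list with 16 of 30 above the wild type and a median of 0.03.

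**Figure D4:**
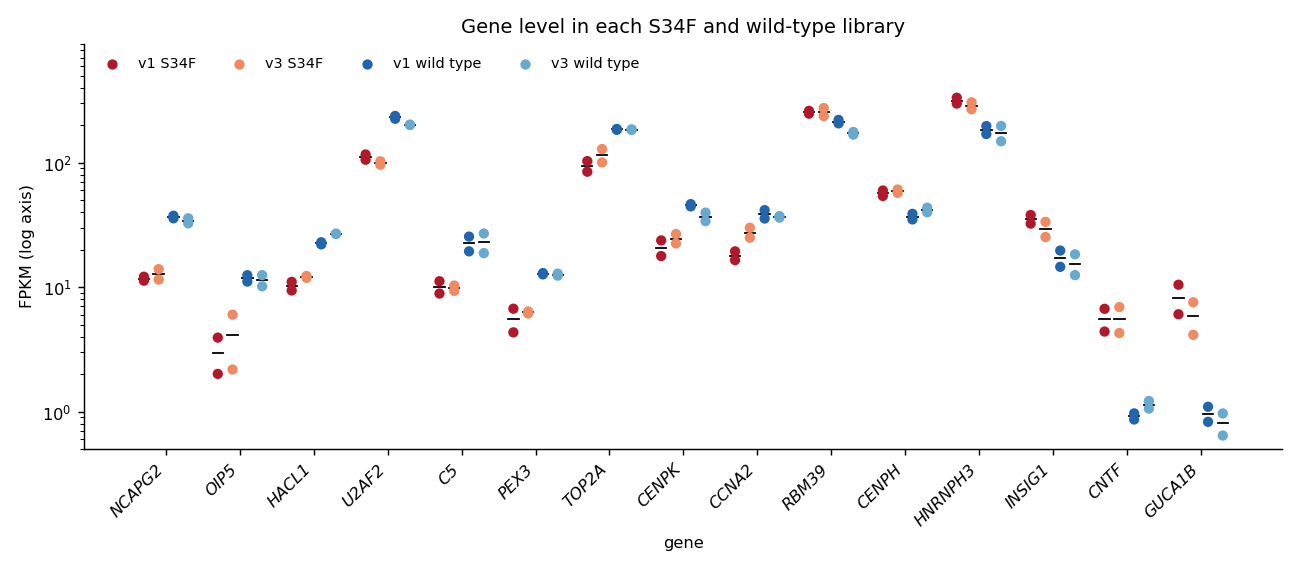
FPKM (log axis) of 15 called genes in the 8 libraries, 1 dot per library and a bar at the mean of the 2 libraries of a group, S34F in reds and the wild type in blues. From NCAPG2 to CCNA2 the S34F libraries lie lower, as in NCAPG2 with 11.3 to 13.96 FPKM against 32.6 to 37.5 FPKM, and from RBM39 to GUCA1B they lie higher.

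Among the largest falls, OIP5, which helps to load the centromeric histone, stood at 3.93 and 2.01 FPKM in v1 S34F and 6.02 and 2.18 FPKM in v3 S34F, against 12.5 and 11.1 FPKM in v1 wild type and 12.5 and 10.2 FPKM in v3 wild type (log2 change -1.55, SE 0.24, adjusted p = 0.011). In S34F its replicates 2 were lower than its replicates 1. HACL1, a lyase of peroxisomal alpha-oxidation, stood at 9.41 and 11.03 FPKM in v1 S34F and 12.3 and 11.9 FPKM in v3 S34F, against 22.1 and 22.96 FPKM in v1 wild type and 26.8 and 26.9 FPKM in v3 wild type (log2 change -1.08, SE 0.083, adjusted p = 0.00041). It was called under every alternative, and its locus overlaps BTD.

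C5, the fifth complement component, stood at 8.89 and 11.2 FPKM in v1 S34F and 9.34 and 10.3 FPKM in v3 S34F, against 19.4 and 25.5 FPKM in v1 wild type and 18.8 and 26.998 FPKM in v3 wild type (log2 change -1.103, SE 0.17, adjusted p = 0.011). It changed by -1.08 with v1 and -1.12 with v3. TPCN1, a cation channel of endosomes, was at 7.28 to 10.3 FPKM with S34F, against 17.6 to 21.5 FPKM with the wild type (log2 change -1.09, SE 0.13, adjusted p = 0.004), and PON3, a paraoxonase, at 5.21 to 11.6 FPKM with S34F, against 14.2 to 21.8 FPKM with the wild type (log2 change -1.08, SE 0.22, adjusted p = 0.037). SLC17A3, an organic anion transporter, was at 0.342 to 1.203 FPKM with S34F, against 2.04 to 4.27 FPKM with the wild type (log2 change -1.23, SE 0.21, adjusted p = 0.016), low in every library. The adjusted p of C5, PON3 and SLC17A3 was 0.073, 0.28 and 0.17 without replicate 2 of S34F.

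The other large falls were of pseudogenes and non-coding genes whose reads may come from related or overlapping genes. ATP5G1P4 was at no more than 0.726 FPKM with S34F, against 1.79 to 5.596 FPKM with the wild type (log2 change -1.68, SE 0.22, adjusted p = 0.0053, or 0.055 without replicate 2 of S34F). PSPC1P1, a pseudogene of PSPC1, was at 1.505 to 2.62 FPKM with S34F, against 5.69 to 6.92 FPKM with the wild type (log2 change -1.34, SE 0.14, adjusted p = 0.0026), while PSPC1 itself used more of its decay-annotated isoform. RP11-539L10.3, RP6-109B7.3 and RP11-385F7.1 changed by -1.42, -1.38 and -1.23, and the first 2 overlap AC093323.3 and FLJ27365.

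The largest rises were of genes with little RNA in the wild type. GUCA1B, a guanylate cyclase activator known from photoreceptors, stood at 6.06 and 10.5 FPKM in v1 S34F and 4.14 and 7.56 FPKM in v3 S34F, against 1.09 and 0.828 FPKM in v1 wild type and 0.643 and 0.967 FPKM in v3 wild type (log2 change 2.04, SE 0.23, adjusted p = 0.0029). CNTF, ciliary neurotrophic factor, stood at 4.401 and 6.703 FPKM in v1 S34F and 4.28 and 6.92 FPKM in v3 S34F, against 0.968 and 0.865 FPKM in v1 wild type and 1.22 and 1.06 FPKM in v3 wild type (log2 change 1.67, SE 0.17, adjusted p = 0.0026). Both were called under every alternative that tested them, with no overlap between S34F and the wild type. They were too low to be tested where a mean of at least 5 FPKM was required. FERMT3, the kindlin of blood cells, was at 2.78 to 5.37 FPKM with S34F, against 0.515 to 1.81 FPKM with the wild type (log2 change 1.21, SE 0.24, adjusted p = 0.031, or 0.25 without replicate 2 of S34F), and overlaps TRPT1. FIGF, vascular endothelial growth factor D, was at 1.88 to 6.57 FPKM with S34F, against 0.828 to 1.08 FPKM with the wild type (log2 change 1.21, SE 0.26, adjusted p = 0.044, or 0.31 likewise).

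CSNK2B-LY6G5B-1181, a readthrough that shares reads with CSNK2B and LY6G5B, rose by 1.67 on the log2 scale. The processed pseudogenes RPS7P3 and TCEB1P19 rose by 1.38 and 1.37, and overlap PCNXL2 and PKN2. The non-coding KB-1460A1.5, RP11-41O4.1 and AC008440.10 rose by 1.69, 1.31 and 1.18. STARD13-AS and RP11-372K14.2, which overlap STARD13 and SH3D19 and cannot be told from them without strand, rose by 1.25 and 1.64. Of these 8, CSNK2B-LY6G5B-1181 was called without replicate 2 of S34F. The others had an adjusted p of 0.22, 0.19, 0.053, 0.11, 0.39, 0.056 and 0.12, in the order given.

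Gene lists are described by their counts beside those of all genes, of which 7767 of 14233 lay above the wild type with a median of 0.02. All lists were chosen with earlier results of these data known, so the counts are no independent evidence. The background shares are 0.583% of genes higher and 1.27% lower, and 3.27% and 4.71% where the replicate block is used. Of the 36 centromere and kinetochore genes 2 rose and 3 fell, or 3 and 6 with the block, with 12 of 36 above the wild type and a median of -0.07. The median was -0.03 and -0.21 in pairs 1 and 2 of v1 and 0.015 and -0.05 in those of v3. CENPK, of the inner kinetochore, fell, with 23.8 and 17.8 FPKM in v1 S34F and 26.7 and 22.5 FPKM in v3 S34F, against 44.6 and 46.5 FPKM in v1 wild type and 39.7 and 33.9 FPKM in v3 wild type (log2 change -0.84, SE 0.11, adjusted p = 0.0047), and BUB1B, the checkpoint kinase BubR1, fell by 0.57 on the log2 scale, with 23.7 to 26.8 FPKM with S34F, against 36.8 to 40.4 FPKM with the wild type (adjusted p = 0.023). CENPH, a neighbour of CENPK in the same complex, rose, with 54.1 and 59.8 FPKM in v1 S34F and 57.3 and 60.9 FPKM in v3 S34F, against 38.8 and 35.04 FPKM in v1 wild type and 43.5 and 39.99 FPKM in v3 wild type (log2 change 0.55, SE 0.092, adjusted p = 0.015). BUB3 rose by 0.31 (adjusted p = 0.037). The other gene of the list that fell was OIP5. The adjusted p without replicate 2 of S34F was 0.23 for BUB1B, 0.21 for CENPH and 0.23 for BUB3.

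Of the 35 mitotic kinases, cyclins and spindle genes 5 fell and 0 rose, where 1.27% of all genes fell, with 14 of 35 above the wild type and a median of -0.06. The median was -0.03 and -0.12 in pairs 1 and 2 of v1 and -0.03 and -0.12 in those of v3, lower in the pairs of replicate 2. TOP2A, topoisomerase II alpha, stood at 103 and 84.7 FPKM in v1 S34F and 129 and 100.5 FPKM in v3 S34F, against 187 and 184 FPKM in v1 wild type and 184 and 185 FPKM in v3 wild type (log2 change -0.84, SE 0.094, adjusted p = 0.0029). CCNA2, cyclin A2, stood at 19.4 and 16.5 FPKM in v1 S34F and 30.01 and 24.99 FPKM in v3 S34F, against 35.6 and 41.6 FPKM in v1 wild type and 37.3 and 36.2 FPKM in v3 wild type (log2 change -0.74, SE 0.093, adjusted p = 0.0044). The spindle genes KIF14, KIF20B and DLGAP5 changed by -0.68, -0.66 and -0.42, while CDK1, PLK1 and AURKB had log2 differences of 0.0998, -0.087 and -0.024, not called. DLGAP5 had an adjusted p of 0.21 without replicate 2 of S34F. With the block 8 of the 35 fell, where 4.71% of all genes did. In bulk RNA a smaller share of cells in a cycle phase and less RNA per cell cannot be told apart. CCNA2 and CENPK changed more with v1, with -1.07 and -1.11, than with v3, with -0.41 and -0.56 (unadjusted p = 0.0048 and 0.028, not called over all genes).

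Of the 43 genes of G1/S and DNA replication, RFC3, of the clamp loader, and RRM1, of ribonucleotide reductase, fell by 0.59 and 0.67 on the log2 scale, with 14 of 43 above the wild type and a median of -0.06. That median depended on the replicate number: it was 0.03 and 0.06 in the pairs of replicate 1, v1 and v3, and -0.29 and -0.09 in those of replicate 2. RFC3 had an adjusted p of 0.27 without replicate 2 of S34F. FANCI, of the Fanconi anemia pathway, stood at 47.1 and 56.1 FPKM in v1 S34F and 48.7 and 55.6 FPKM in v3 S34F, against 88.02 and 105 FPKM in v1 wild type and 88.98 and 93.6 FPKM in v3 wild type (log2 change -0.84, SE 0.104, adjusted p = 0.0042) and was called under every alternative, the only call among 31 genes of DNA repair and Fanconi anemia (median -0.0017, 15 of 31 above, and 3 lower with the block).

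Of the 33 measured genes of peroxisomal oxidation HACL1 and PEX3 fell, and 6 with the block, where 4.71% of all genes did, with 13 of 33 above the wild type and a median of -0.06. PEX3, which starts peroxisome membranes, stood at 4.33 and 6.72 FPKM in v1 S34F and 6.15 and 6.38 FPKM in v3 S34F, against 12.98 and 12.7 FPKM in v1 wild type and 12.4 and 12.8 FPKM in v3 wild type (log2 change -1.01, SE 0.16, adjusted p = 0.011). It overlaps RP1-20N2.6. AMACR, which prepares branched fatty acids for oxidation, was at 10.3 to 11.6 FPKM with S34F, against 14.6 to 15.04 FPKM with the wild type (adjusted p = 0.0504, which missed the threshold, or 0.015 with the block). CAT and PHYH, other enzymes of the organelle, had log2 differences of -0.057 and 0.070, not called.

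Of the 30 genes of cholesterol and fatty acid synthesis 24 lay above the wild type, with a median of 0.29. INSIG1, which holds back the sterol sensor SCAP and is itself a sterol-regulated gene, stood at 38.02 and 32.4 FPKM in v1 S34F and 25.3 and 33.5 FPKM in v3 S34F, against 19.7 and 14.6 FPKM in v1 wild type and 18.4 and 12.5 FPKM in v3 wild type (log2 change 0.95, SE 0.15, adjusted p = 0.012). MVK, mevalonate kinase, stood at 16.6 and 19.7 FPKM in v1 S34F and 13.1 and 20.01 FPKM in v3 S34F, against 9.77 and 9.66 FPKM in v1 wild type and 10.2 and 10.5 FPKM in v3 wild type (log2 change 0.72, SE 0.15, adjusted p = 0.038), and overlaps MMAB. INSIG1 and MVK were the 2 genes called, and with the block DHCR7, FDFT1, IDI1 and FADS1 were called higher too. HMGCS1, with a called isoform, had a log2 difference in level of 0.003, not called. INSIG1 and MVK had an adjusted p of 0.12 and 0.34 without replicate 2 of S34F. The list's median was 0.31, 0.34, 0.10 and 0.36 in pairs 1 and 2 of v1 and pairs 1 and 2 of v3.

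The 22 NRF2 targets, which A549 cells express at high level, had 4 above the wild type and a median of -0.12. With the block 4 were called lower. ALDH3A1, an aldehyde dehydrogenase, was the only one called without it, at 330.2 to 454 FPKM with S34F, against 519 to 580.1 FPKM with the wild type (log2 change -0.54, SE 0.12, adjusted p = 0.043), and it was not called without replicate 2 of S34F (adjusted p = 0.35). AKR1B10, an aldo-keto reductase, was at 945 to 1035 FPKM with S34F, against 1241 to 1395 FPKM with the wild type (adjusted p = 0.051, or 0.021 with the block). GCLC, of the same list, had a log2 difference of 0.34, not called.

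EZH2, the Polycomb methyltransferase, and STRAP fell and SLC35C2 rose, the 3 called of the 30 known mutant U2AF1 targets (18 above, median 0.13; 3 higher and 2 lower with the block). EZH2 stood at 13.1 and 16.1 FPKM in v1 S34F and 14.9 and 17.1 FPKM in v3 S34F, against 21.998 and 28.7 FPKM in v1 wild type and 23.3 and 28.7 FPKM in v3 wild type (log2 change -0.71, SE 0.12, adjusted p = 0.02). Its isoform ENST00000492143, annotated to decay, stood at 29.9% to 54.6% with S34F, against 14.3% to 23.6% with the wild type (adjusted p = 0.11, or 0.036 with the block). The protein-coding ENST00000460911 was at most 16.4% with S34F, against 17.4% to 43.4% with the wild type (-29.7 points, adjusted p = 0.062, or 0.027 with the block). ENST00000350995, also protein-coding, gained 13.6 points (adjusted p = 0.21). None of these isoforms was called without the block, and whether they bear on the level of EZH2 was not tested. MTHFD2, of mitochondrial folate metabolism, was the only call among 25 genes of the unfolded protein and integrated stress response (log2 change 0.33, adjusted p = 0.0496, 18 of 25 above, median 0.16, and 2 higher and 1 lower with the block). Without replicate 2 of S34F the adjusted p was 0.08 for EZH2, 0.31 for STRAP, 0.23 for SLC35C2 and 0.39 for MTHFD2.

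In 11 lists limma called 0 genes, with 20 of 196 genes at an unadjusted p under 0.05, against 2266 of 14233 overall. With the block 9 of the 196 were called, where 7.98% of all genes were. These lists include nonsense-mediated decay and exon junction (7 of 19 above the wild type, median -0.05), p53 targets (18 of 28, 0.08), NF-kB and inflammatory cytokines (15 of 20, 0.10), autophagy (21 of 27, 0.12), epithelial genes (8 of 16, 0.01) and mesenchymal and TGF-beta response genes (16 of 22, 0.15). In pairs 1 and 2 of v1 and then of v3, the medians were 0.03, 0.35, -0.04 and 0.11 for the p53 targets and 0.07, 0.05, -0.01 and 0.25 for NF-kB. Of the cytosolic ribosomal proteins 37 of 41 lay above the wild type, with a median of only 0.03. The 15 mitochondrially encoded genes all lay above it, with medians of 0.0070 and 0.34 in pairs 1 and 2 of v1 and 0.012 and 0.096 in those of v3, larger in the pairs of replicate 2. Few of the markers of alveolar and airway cells (4), fibroblasts (2) and leukocytes and endothelium (2) reached 1 FPKM, with 2, 0 and 1 above the wild type and 0 called.

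The constructs were compared with each other, since the v1 and v3 pairs share no library. With v1 alone 25 genes were called (0.176%) and with v3 alone 3 (0.0211%), HACL1, NCAPG2 and CTC-246B18.10. Isoforms called were 4 with v1 alone (0.00957%) and 0 with v3 alone, where limma gave 3078 an unadjusted p under 0.05. All 25 genes had the same sign with v3 and 24 had an unadjusted p under 0.05 there, as did 6.44% of all genes. Both tests took each gene's spread from all 14 libraries, so genes chosen with v1 tend to have a small spread with v3 too. The p-values of the constructs are therefore not independent, and the share of all genes is not a like background. The median change of the 25 genes was 1.07 with v1 and 0.87 with v3 in the same direction, with v1 as the construct that chose them. Among all 264 called genes the change was larger with v1 in 181. The difference between the constructs itself was called for 0 genes by limma, and with the block for 0 as well. Without the block 101 of 14233 genes had an unadjusted p under 0.05 by limma, fewer than no difference at all would give. That fit keeps the deviations shared by same-numbered libraries in its spread, so its p-values for this difference can be too large. The lack of calls therefore does not show that the constructs act alike.

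Across all genes, which are not independent replicates, the v1 and v3 changes had a Pearson correlation of 0.52. Between single pairs it was 0.46 where both were of replicate 2 and 0.32 where both were of replicate 1. Pairs of different numbers gave 0.26 and 0.28, so the constructs were more alike within a replicate number. In the 264 called genes the median size of the change was 0.59 and 0.75 in pairs 1 and 2 of v1 and 0.52 and 0.67 in those of v3. The pairs with replicate 2 showed the larger changes with both constructs.

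**Figure D5:**
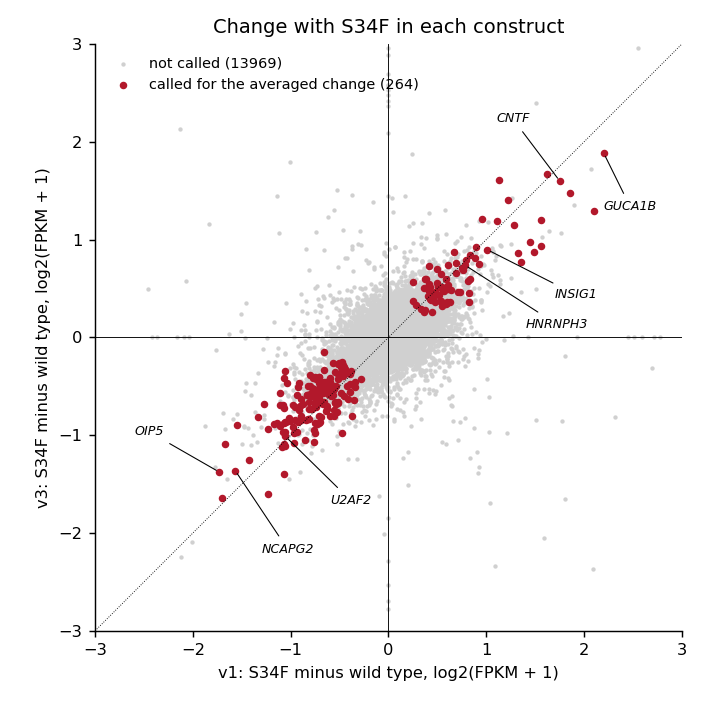
Change with S34F in v3 (vertical) against that in v1 (horizontal), both as differences of log2(FPKM + 1), for 14233 genes, of which 13 lie outside the axes. The 264 called genes (red) lie at the lower left and upper right, and NCAPG2 and U2AF2 close to the dotted line of equal change.

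The change with S34F was set beside that of the U2AF1 knockdown, knockdown with empty vector against control siRNA with empty vector, which shares no library with it. Both tests took each gene's spread from all 14 libraries, so their calls are not independent. With the knockdown 405 genes were called (2.85%), 112 higher (0.787%) and 293 lower (2.06%). Both comparisons called 26 genes, 9.85% of the 264 and 6.42% of the 405, of which 17 had the same sign and 9 the opposite one. HACL1 changed by -1.08 with S34F and -0.69 with the knockdown, and RBM39, CENPH, MTHFD2 and CSNK2B-LY6G5B-1181 rose in both.

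U2AF2 changed by -1.03 with S34F and 0.62 with the knockdown (adjusted p = 0.043). Its knockdown libraries were at 273 and 340.2 FPKM and its control siRNA libraries at 172 and 227 FPKM. NCAPG2 was at 45.2 and 44.5 FPKM with the knockdown and 48.5 and 48.7 FPKM with the control siRNA (log2 -0.11, adjusted p = 0.67), well above its level in any S34F library. The difference between the S34F change and the knockdown change was called for 252 genes (1.77%), 169 higher (1.19%) and 83 lower. NCAPG2 and U2AF2 were among them with differences of -1.35 and -1.66 (adjusted p = 0.0044 and 0.0044). This test was added after the values were seen.

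Genes whose level changed were compared with genes whose isoforms changed. Of the 232 called genes with isoforms tested, 12 or 5.17% also had a called isoform, as did 2.14% of all genes with isoforms tested. Of the 12, 3 rose and 9 fell. The rest had none called. NCAPG2 and U2AF2 had no called isoform. ENST00000356309 of NCAPG2 was at 19.2% to 42.9% with S34F, against 45.7% to 60.6% with the wild type (adjusted p = 0.12), and U2AF1 ENST00000380276 was at 97.4% to 97.8% in v1 S34F, against 97.1% to 97.9% in v1 wild type, and at 1.13% to 1.44% in v3 S34F, against 1.103% to 1.27% in v3 wild type.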

How the data were processed

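The 14 tables hold an FPKM value and a coverage signal per isoform as deposited. Trimmomatic 0.30, TopHat2 2.0.12 and the build GRCh37 are named in the submitters' processing notes, while quantifier and annotation were not given in the sources used here. FPKM carries no read counts, so depth is known only relative to other libraries, from the coverage signal in the deposited tables. Per the file headers the columns follow an FPKM tracking format.

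FPKM was summed per gene, and isoform usage was taken as percent of that sum. Genes with a mean of at least 1 FPKM were tested on log2(FPKM + 1), and isoforms with a mean usage of 5% to 95% on percent, with limma 3.58.1 (R 4.3.3; eBayes with trend). The model had 1 mean for each of 7 groups over 14 libraries, and the contrast was the average of S34F minus wild type in v1 and in v3. Fold changes on this scale understate those of low genes. P-values were adjusted by Benjamini-Hochberg over all features, and "called" means an adjusted p under 0.05. Acceptor usage came from isoforms whose identifiers and exons matched GENCODE release 29 (GRCh38); gene coordinates are GRCh37. Plots and joins used Python 3.11.15 (pandas 2.3.3, numpy 2.4.6, matplotlib 3.10.9).

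Same-numbered libraries deviated together from their group means, with r of 0.42 to 0.57 over genes and 0.10 to 0.17 over isoform usage for the 6 pairs of groups, so the replicate block was used as a paired alternative. The named genes were the 12 largest called rises and 12 largest called falls with the same sign in 4 pairs, NCAPG2, U2AF2, U2AF1 and called list members. The named isoforms were the 10 largest called each way with the same sign in 4 pairs, 1 per gene and in genes of at least 5 FPKM, with called list members. The named acceptors were the 6 largest each way, with 5 each way by p outside chromosome 8, 1 per gene. Members and lists were chosen with earlier results of these data known. The fits were tested on simulated data. A few results are not reported here.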

Additional observations from a re-analysis of the deposited data

Results flagged for a closer look

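The constructs differed in the S34F effect on usage for 2 isoforms, both of SNORA76, a small nucleolar RNA gene (chromosome 17, 62223330 to 62223836, GRCh37). The v1 change minus the v3 change was -90.6 points for ENST00000408535 and 90.6 points for ENST00000582965 (adjusted p = 0.00039 by limma for the interaction, fitted without replicate 1 of the untreated cells, where SNORA76 was at 0). ENST00000408535 was at 0% in both v1 S34F libraries, against 92.8% and 88.4% in v1 wild type, and at 0% in the v3 libraries of both alleles. It was also at 70.3% in replicate 2 of the untreated cells. Both replicates had the same value in v1 S34F, v3 S34F and v3 wild type, so this p rests on little measured spread and carries little meaning. SNORA76 stood at 2.04 and 5.11 FPKM in v1 S34F and 1.99 and 6.48 FPKM in v3 S34F, against 28.4 and 18.0 FPKM in v1 wild type and 1.92 and 2.87 FPKM in v3 wild type.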

How the results depend on the processing

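With the replicate block, which follows the pairing of the libraries, 1136 genes were called in place of 264, and 1471 in place of 252 for the S34F change against the knockdown change. It called 415 isoforms in place of 294 and gave T shares of 65.6% and 8.02%. A fit to only the 8 libraries called 39 genes and 2 isoforms, and 2 genes for the difference between v1 and v3, with a T share of 59.4% among acceptors used less. These were, without replicate 2 of both S34F groups, 56 genes, 53 isoforms, 9 genes and 53.4%, and 36 genes for S34F against knockdown. Leaving out single libraries gave 47 to 332 genes, 14 to 420 isoforms, 32 to 265 genes for S34F against knockdown, and a T share of 59.3% to 66.4%. For the difference between v1 and v3 it gave 1 to 6 genes and 4 to 14 isoforms, against 14 isoforms without replicate 2 of both S34F groups. No filter on low values gave 15 genes for that difference and 133 for S34F against knockdown, and a pseudocount of 0.1 gave 1 for the difference. A gene mean of at least 5 FPKM gave 542 called isoforms. Without limits on mean usage there were 562, and 130 for the difference between v1 and v3. The T share among acceptors used less was 58.1% at an unadjusted p under 0.05 and 73.2% where the spanning isoforms had at least 5 FPKM. U2AF1 differed by 0.029, and by -0.33 without replicate 2 of both S34F groups, -0.024 after quantile normalization and -0.18 to 0.23 without single libraries. The causes were not tested. NCAPG2 ran from -1.53 to -1.38 and U2AF2 from -1.07 to -0.998, and both were called under every alternative. Of the named items 9 of 46 genes besides these, 0 of 43 isoforms and 0 of 22 acceptors were called under every alternative that tested them, and no named gene besides U2AF1 and no named isoform changed sign. Of the 9 genes, GUCA1B, CNTF, CSNK2B-LY6G5B-1181, RP11-539L10.3 and PSPC1P1 were too low to be tested at a mean of at least 5 FPKM. In simulated data of this comparison, with 14244 genes and 41820 isoforms, limma recovered 25.4%, 79.1% and 100% of gene changes of 0.5, 1 and 2 on the log2 scale, with 7 false calls, and 0%, 41.8% and 90.9% of usage changes of 10, 20 and 40 points, with 2. The simulated libraries had independent errors and the same spread in every group. They lack the shared deviations of same-numbered libraries and the distance of the S34F replicates 2, so these rates and false calls may not hold for the measured libraries.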
